A study of Mus musculus with 6 samples.

Results

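Metallothioneins, the metal-responsive transcription factor MTF-1 and 7 zinc transporters were followed in primary mouse liver sinusoidal endothelial cells with and without cyclic hydrostatic pressure. The genes were Mt1, Mt2, Mtf1, Slc30a1, Slc30a5, Slc30a7, Slc39a1, Slc39a6, Slc39a10 and Slc39a14. They were taken by symbol, and all 10 were found among the 24421 genes listed in the 6 libraries. The members were chosen by their measured difference between control and pressure counts in these same libraries, so it is given for these 10 genes as a description, with no test. Tests are given for other genes of metal handling, which were listed separately.

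Every library came from livers of mice labelled as wild genotype, with CD146 beads used to pick the endothelial cells, an overnight culture on collagen I and 6 h without serum. The pressure group (n = 3) then spent 8 h under pressure that cycled at 0.01 Hz from 101 up to 135 kPa in absolute terms, and the control group (n = 3) is labelled as control with no separate account of those hours, so a difference in handling or culture time cannot be told apart from pressure. All samples carry a single batch label. No label ties a replicate to an animal or culture of its own, so the errors and p-values may reflect technical spread alone.

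Metallothioneins are small cysteine-rich proteins that bind zinc and copper and buffer the free metal in the cytosol. MTF-1 senses free zinc and binds metal response elements in the promoters of metallothionein genes and of Slc30a1. Transporters of the SLC30 (ZnT) family move zinc out of the cytosol, across the plasma membrane or into organelles, and those of the SLC39 (ZIP) family move it into the cytosol. In the liver, metallothioneins are known for their induction by zinc, glucocorticoids and inflammatory cytokines.

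The promoters of both metallothionein genes are shown because they hold the largest numbers of the core metal response element among the 8 members with a promoter sequence. Sequences are from RefSeq (GRCm38.p6), 5′ to 3′ on the strand of the gene, and capitals mark TGCACNC or TGCGCNC on either strand, where N is any base. The windows cover the 250 bases before the start of the gene as placed with these sequences. The Mt1 stretch lies on the plus strand at chr8:94178839-94179088 and the Mt2 stretch at chr8:94172368-94172617.
Mt1, before the start: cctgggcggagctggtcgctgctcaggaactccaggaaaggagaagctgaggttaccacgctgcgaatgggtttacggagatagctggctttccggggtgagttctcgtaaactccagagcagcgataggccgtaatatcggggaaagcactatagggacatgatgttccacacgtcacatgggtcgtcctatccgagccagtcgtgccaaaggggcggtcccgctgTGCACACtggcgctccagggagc
Mt2, before the start: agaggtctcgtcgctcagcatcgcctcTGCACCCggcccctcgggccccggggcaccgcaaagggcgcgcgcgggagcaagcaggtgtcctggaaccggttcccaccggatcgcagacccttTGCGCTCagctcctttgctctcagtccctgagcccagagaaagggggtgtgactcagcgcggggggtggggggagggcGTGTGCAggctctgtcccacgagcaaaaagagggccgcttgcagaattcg

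Further matches lay just past these starts, and short stretches of 30 bases show them. The GENCODE M21 gene models place the starts elsewhere, at 94179082 for Mt1 and 94172664 for Mt2. By those models, the Mt2 stretch after the start lies wholly before the gene, and the Mt1 stretch before the start ends inside it. The Mt1 stretch is at chr8:94179089-94179118, the Mt2 stretch at chr8:94172618-94172647, and the stretch before the start of Slc30a1, the main zinc exporter of the plasma membrane, at chr1:191906721-191906750, all on the plus strand.
Mt1, after the start: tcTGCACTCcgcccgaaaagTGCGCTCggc
Mt2, after the start: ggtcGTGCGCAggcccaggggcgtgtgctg
Slc30a1, before the start: gtgaaaacgggggttccGAGTGCAaagcaa
In windows of 300 bases (250 before and 50 after the start) the Mt2 promoter held 4 matches, Mt1 held 3, Slc30a1 held 2 and Slc30a5 held 1. The windows of Mtf1, Slc30a7 and Slc39a1 and both windows of Slc39a10 held 0. Among zinc transporters outside the members, Slc30a4 and Slc30a10 held 3, like Mt1, Slc30a2 held 2 and the other windows at most 1. Slc39a6 and Slc39a14, and Slc30a8 and Slc39a4 outside the members, are not in the table. Of all 32851 windows in the table, 25.7% held at least 1 match, 7.11% at least 2, 1.97% at least 3 and 0.52% at least 4. A match describes these letters and is not a binding site.

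Mt1 and Mt2 were far more abundant in the pressure libraries than in the controls. Levels are CPM, the share of a library's counts on a common depth, scaled to library size with TMM factors. Mt1 stood at 132, 155 and 123 CPM in control libraries 1 to 3 and at 599.5, 627 and 1018 CPM in pressure libraries 1 to 3. The groups did not overlap, and the log2 fold change (pressure over control, ± SE from edgeR) was 2.45 ± 0.19, or 5.48-fold. Mt2 stood at 25.6, 26.7 and 23.3 CPM in controls and at 392, 432 and 698 CPM under pressure. Its groups were also apart, and its log2 fold change of 4.33 ± 0.21, 20.1-fold, was larger in size than that of 99.8% of the 12892 genes tested. Both genes reached their highest level in pressure library 3, at 1.66 times the mean of the other pressure libraries for Mt1 and 1.70 times for Mt2. Without that library, the log2 fold changes were 2.17 for Mt1 and 4.03 for Mt2.

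The balance between these metallothionein transcripts moved with pressure. The ratio of Mt2 to Mt1 counts was 0.195, 0.172 and 0.189 in the controls and 0.654, 0.689 and 0.686 under pressure. Mt2 thus made up 15.7% ± 0.832 (SD, n = 3) of the summed counts of both genes in controls and 40.3% ± 0.700 (SD, n = 3) under pressure. The ratio was as tight within the pressure group as within the controls, although the level of each gene varied by more than 1.5 times among the pressure libraries. A ratio within a library does not depend on how library sizes are scaled. The plot of Mt2 against Mt1 shows each library on its group's line.

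**Figure D1:**
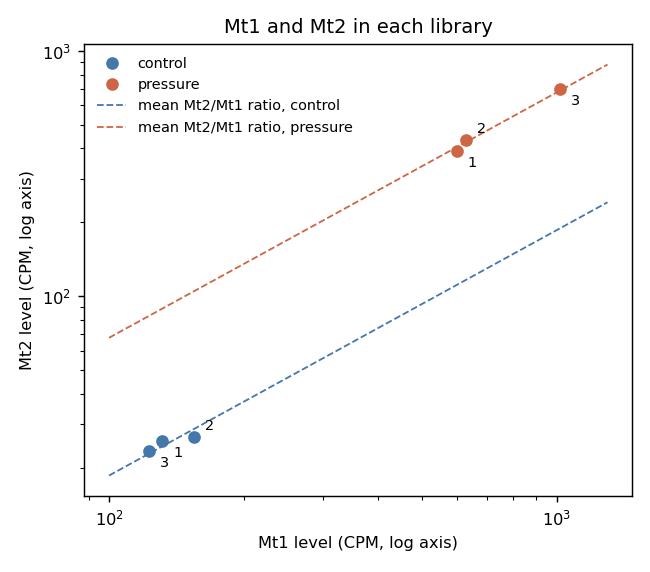
Level of Mt2 against Mt1 in each of the 6 libraries (CPM, both axes on a log scale), numbered by replicate; dashed lines mark the mean Mt2 to Mt1 ratio of each group. The control libraries lie near a ratio of 0.186 and the pressure libraries near 0.676, with pressure library 3 highest on both axes.

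In GRCm38 (mm10, GENCODE M21), Mt2 spans chromosome 8 from 94172664 to 94173568 and Mt1 lies downstream on the same strand, from 94179082 to 94180327, with 5513 bases between them. Both are protein-coding, and the spans include untranslated regions. Merged over transcripts, the exons of Mt1 fill its whole span as 1 block of 1246 bases, whereas those of Mt2 form 3 blocks of 588 bases in all. All deposited counts of Mt1 and Mt2 were whole numbers, from 353 (Mt2, control library 3) to 12432 (Mt1, pressure library 3). An antisense gene, Gm45774, shares 432 exonic bases with Mt2 and is not listed in the files, and the strand setting of the counting is not given in the sources used here, so reads of either strand cannot be told apart. The other metallothionein genes of the cluster were close to absent. Mt3, known from brain, had 7 counts over all 6 libraries, and Mt4, known from squamous epithelium, had 0, which allows up to 0.246 CPM in the shallowest library (3 counts, counting error only).

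Mtf1, which encodes the zinc sensor itself, differed far less than the metallothioneins. It stood at 37.9, 36.0 and 38.7 CPM in controls and at 51.7, 49.2 and 44.9 CPM under pressure. The groups did not overlap, and the log2 fold change was 0.38 ± 0.09. With library totals in place of TMM factors it was 0.16, the lowest value among 16 alternatives. That scaling moved the median log2 fold change of all genes from -0.02 to -0.23, and upper-quartile factors moved it to -0.13, so small differences depend on the scaling. Mtf1 shares 721 exonic bases with 1110065P20Rik on the other strand, which had between 89.5 and 122 deposited counts per library, against 548.5 or more for Mtf1.

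Among the exporters, Slc30a1 and Slc30a5 were higher under pressure and Slc30a7 overlapped between the groups. Slc30a1 stood at 125, 118 and 126 CPM in controls and at 255.5, 291 and 285 CPM under pressure. Every pressure library lay above every control, with a log2 fold change of 1.17 ± 0.08 (0.96 with library totals). Slc30a5, which loads zinc into the secretory pathway, stood at 81.9, 83.8 and 80.5 CPM in controls and at 110.2, 116 and 114 CPM under pressure. This smaller difference, 0.47 ± 0.07, also left no overlap, and was 0.25 with library totals. Slc30a7, a Golgi zinc transporter, stood at 49.1, 42.3 and 51.8 CPM in controls and at 40.6, 43.8 and 33.6 CPM under pressure. Its control library 2 lay below pressure library 2. The log2 fold change was -0.27 ± 0.12 and ranged from -0.49 (library totals) to -0.17 (without pressure library 3). Slc30a7 shares 637 exonic bases with Gm43106 and 1165 with Gm6649, pseudogenes on the other strand that are not among the listed genes.

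The 4 importers went different ways. Slc39a10, a plasma membrane zinc importer whose transcription MTF-1 is known to repress, was the member with the largest decrease, at 91.5, 83.3 and 93.9 CPM in controls and at 16.2, 18.1 and 12.04 CPM under pressure. The groups lay far apart and the log2 fold change was -2.53 ± 0.13, which is 5.76-fold lower. Slc39a6, a member of the same subfamily of importers, was higher under pressure, at 66.2, 58.5 and 59.8 CPM in controls and at 142, 131 and 125 CPM under pressure (1.11 ± 0.09). These related importers therefore differed in opposite directions, each with no overlap between groups.

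Slc39a1, a widely expressed importer, stood at 164, 169 and 173 CPM in controls and at 147, 158 and 174 CPM under pressure. Its groups overlapped, with a log2 fold change of -0.08 ± 0.08. Slc39a14, which carries zinc, iron and manganese and is known in liver as an acute-phase gene induced by interleukin 6, stood at 24.6, 21.5 and 24.2 CPM in controls and at 23.4, 21.9 and 17.7 CPM under pressure (-0.15 ± 0.12). Here too the groups overlapped. With library totals the log2 fold changes were -0.29 for Slc39a1 and -0.37 for Slc39a14, the lowest among the 16 alternatives for each.

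**Figure D2:**
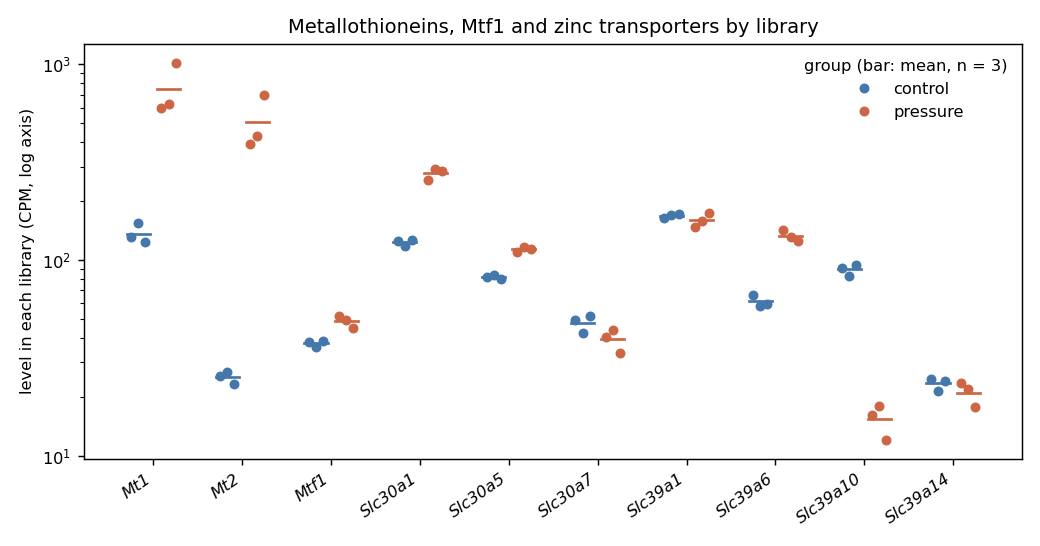
Level of each of the 10 genes in every library (CPM, log axis); points are libraries in order of replicate number and bars are group means (n = 3). Mt1, Mt2, Mtf1, Slc30a1, Slc30a5 and Slc39a6 lie higher in every pressure library, Slc39a10 lies lower, and Slc30a7, Slc39a1 and Slc39a14 overlap.

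Of the 10 members, all passed the low-count filter, 6 were called higher and 1 lower at an adjusted p of 0.05 in the fit over all genes, and the same 7 were those whose groups did not overlap. Across all 12892 genes tested the call rate was 68.8% (33.7% higher and 35.1% lower), and 71.9% did not overlap between groups. Their median log2 fold change was 0.42, against -0.02 for all genes tested. Since the members were chosen with this contrast known, nothing is read from their count or their median.

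Per length of transcript, metallothioneins led the 10 genes in controls with Slc39a1 between them, and stood above all the others under pressure. Levels were divided by the exonic length of each gene (CPM per kb). In controls Mt1 was highest at 109.5 ± 13.1 (SD, n = 3), followed by Slc39a1 at 71.4 ± 1.87, Mt2 at 42.9 ± 2.91, Slc30a1 at 23.4 ± 0.894, Slc39a6 at 15.1 ± 1.01, Slc39a10 at 14.7 ± 0.911, Slc30a5 at 11.3 ± 0.228, Slc30a7 at 4.29 ± 0.441, Mtf1 at 4.21 ± 0.160 and Slc39a14 at 2.22 ± 0.159. The neighbours Slc39a6 and Slc39a10, and Slc30a7 and Mtf1, overlapped in this order. Under pressure Mt2 stood at 863 ± 283 CPM per kb and Mt1 at 600.4 ± 188, with overlapping ranges, followed by Slc39a1 at 67.6 ± 5.83 and Slc30a1 at 52.9 ± 3.63. Slc39a10 went from the sixth place to the ninth, at 2.53 ± 0.506 CPM per kb, overlapping with Slc39a14 at 1.99 ± 0.283. Parts of this order depend on the length used. The 4 leading genes kept their places in both groups with the length of the longest transcript, while Slc30a5 moved up to the fifth place in controls. With coding length, taken as the longest coding sequence annotated for each gene, Slc30a1 (184 CPM per kb) stood above Slc39a1 (164) under pressure. Slc39a10 was last under pressure with either of these lengths. The exonic length of Mt1 (1246 bases) is 1 block that fills its whole span, with no base left out as intron. It is long beside the longest coding sequence annotated for any Mt1 transcript (396 bases), which other transcripts need not share. The exonic length of Mt2 (588 bases) is made of 3 blocks. The level of Mt1 per kb, and the order of Mt1 and Mt2, thus depend on which transcripts were present. In CPM, Mt1 was above Mt2 in both groups, with means of 748 and 507 under pressure.

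Relative to the transporters, metallothionein transcripts were several times more abundant under pressure. The summed level of Mt1 and Mt2 was 3.92 ± 0.519 times (SD, n = 3) that of Slc30a1, Slc30a5 and Slc30a7 together in controls and 20.3 ± 6.23 times under pressure, on the scale of CPM per kb. Against the 4 Slc39a members it was 1.48 ± 0.179 times in controls and 13.9 ± 4.03 times under pressure. The sizes of these ratios depend on the lengths used. In CPM, without division by length, the ratio to the Slc30a members was 0.641 in controls and 2.92 under pressure. That to the Slc39a members was 0.472 and 3.82. The 3 Slc30a members summed to 39.0 ± 1.11 CPM per kb in controls and 71.9 ± 4.06 under pressure, whereas the sums of the 4 Slc39a members overlapped, at 103 ± 1.96 and 105 ± 3.20. Without division by length, the sum of these 4 was slightly lower in every pressure library, with means of 343 ± 9.54 CPM for controls and 329 ± 0.576 CPM for pressure. Per kb, the ratio of the Slc30a to the Slc39a members was 0.384, 0.371 and 0.376 in controls and 0.663, 0.724 and 0.674 under pressure. The ratio of Slc30a1 to Slc39a10, a pair chosen after its values were seen, stood at 1.60 ± 0.0407 in controls and 21.5 ± 5.18 under pressure per kb.

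**Figure D3:**
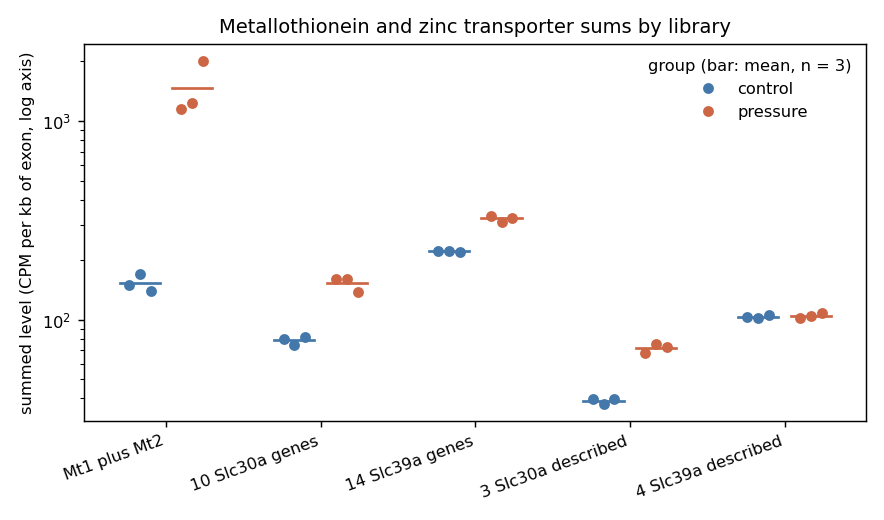
Summed levels in each library (CPM per kb of exon, log axis) of Mt1 plus Mt2, of whole transporter families and of the described members of each family; bars are group means (n = 3). Mt1 plus Mt2 lie between 138.5 and 169 in controls and between 1148 and 2005 under pressure, and the sum of the 4 described Slc39a genes overlaps between groups.

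The remaining zinc transporters, which the choice of members did not include, moved both ways, as did all genes (33.7% higher and 35.1% lower). Of 18 listed, 13 had enough counts for testing, of which 4 rose and 4 fell (61.5% called, beside 68.8% of all genes). Their median log2 fold change was -0.16. Slc30a4, which moves zinc into endosomes and secretory vesicles, stood at 159, 138 and 167 CPM in controls and at 455, 415 and 297 CPM under pressure. It rose by 1.33 ± 0.14 (edgeR adjusted p = 1.44e-05), and it shares 130 exonic bases with 4930417H01Rik on the other strand, which is not among the listed genes. Slc39a7, which releases zinc from the endoplasmic reticulum, went from 223, 225 and 212 CPM to 506, 437.5 and 468 CPM. Its rise was 1.10 ± 0.08 (edgeR adjusted p = 7.81e-07), and it shares 2084 exonic bases with Gm20427 on the same strand, which is not listed in the files. Slc39a4, best known as the zinc importer of the intestine, rose from 9.47 ± 0.194 to 29.7 ± 3.46 CPM (1.64 ± 0.11, edgeR adjusted p = 8.07e-07). Tmem163, a zinc efflux protein without an Slc30a or Slc39a symbol, had 2, 1 and 2 counts in controls and 17, 15 and 15 under pressure (edgeR adjusted p = 5.87e-05). These are too few for its fold to be more than a rough value.

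Among these transporters outside the members, the falls were smaller than the rises. Slc39a12 went from 7.03 ± 0.338 to 3.65 ± 0.830 CPM (log2 fold change -0.92 ± 0.17, edgeR adjusted p = 6.94e-04), and Slc30a9, now known as a mitochondrial zinc transporter, from 77.1 ± 3.60 to 59.8 ± 4.97 CPM (-0.37 ± 0.09, edgeR adjusted p = 0.00299). Slc39a13 (-0.37 ± 0.13, edgeR adjusted p = 0.0212) and Slc39a11 (-0.27 ± 0.11, edgeR adjusted p = 0.0411) also passed. Both calls were lost without control library 1 or 2 or without pressure library 1 or 2, leaving 2 falls in each case. Slc39a11 was lost too without pressure library 3 (edgeR adjusted p = 0.0545), with RLE factors (0.0563), with DESeq2 (0.11), with the replicate number as a block (0.0853) and with the length offset (0.0954). Slc30a6 (-0.19 ± 0.12), Slc39a3 (-0.16 ± 0.13), Slc39a5 (-0.16 ± 0.44), Slc39a8 (0.00 ± 0.09) and Slc39a9 (0.19 ± 0.12) did not pass. Without pressure library 3, Slc39a9 passed as higher (0.32, edgeR adjusted p = 5.16e-04) and Slc39a3 as lower (-0.27, edgeR adjusted p = 0.0224). Slc30a2, Slc30a3 and Slc30a8 had 0 counts in every library, Slc30a10 had 3 in all and Slc39a2 had 26.

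**Figure D4:**
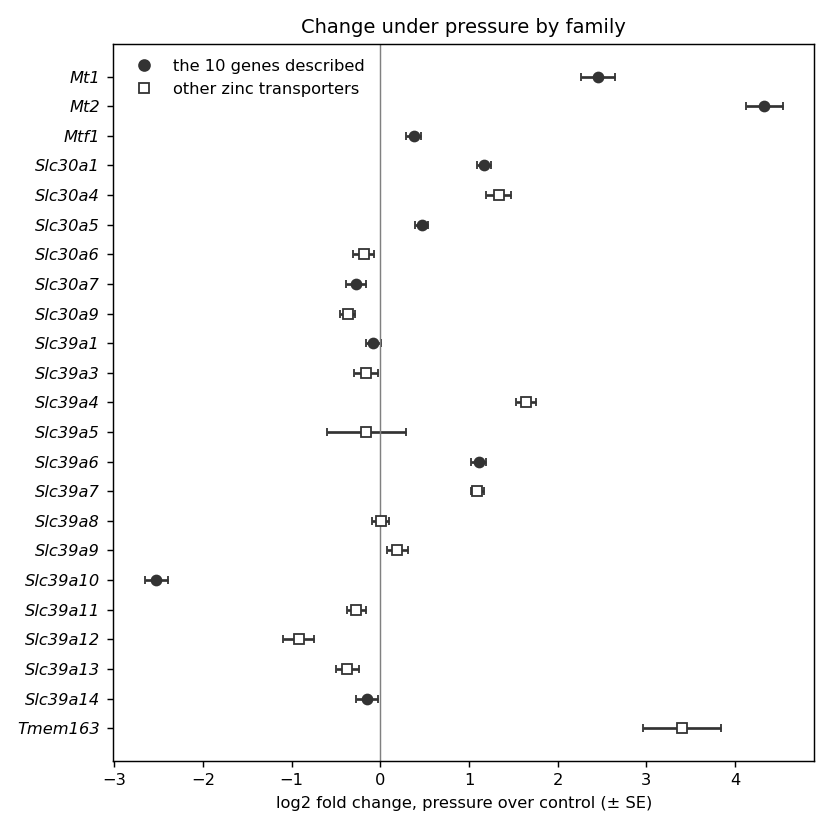
Log2 fold change (pressure over control, bars ± SE) of the 10 genes described (filled circles) and of the 13 other zinc transporters tested (open squares), ordered by family. Mt2 lies furthest to the right at 4.33 and Slc39a10 furthest to the left at -2.53, while members of both transporter families lie on either side of 0.

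When all 10 Slc30a genes were summed per kb, the level was 78.5 ± 3.48 in controls and 152 ± 12.99 under pressure (SD, n = 3), and that of all 14 Slc39a genes 221 ± 1.53 and 323 ± 11.6. The ratio of the families was 0.357, 0.337 and 0.372 in controls and 0.478, 0.516 and 0.420 in the pressure libraries, without overlap. The composition of each family differed as well. Slc30a4 held 35.9% ± 1.97 of the Slc30a level in controls and 46.3% ± 6.38 under pressure, and Slc30a1 held 29.9% ± 0.360 and 34.9% ± 4.48. In the Slc39a family, Slc39a7 held 38.5% ± 0.975 in controls and 56.2% ± 2.24 under pressure, Slc39a1 32.3% ± 1.04 and 20.9% ± 2.03, and Slc39a10 6.65% ± 0.444 and 0.786% ± 0.175. In controls Slc39a7 and Slc39a1 were thus closer to each other than under pressure, where Slc39a7 was the most abundant importer by a wide margin.

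**Figure D5:**
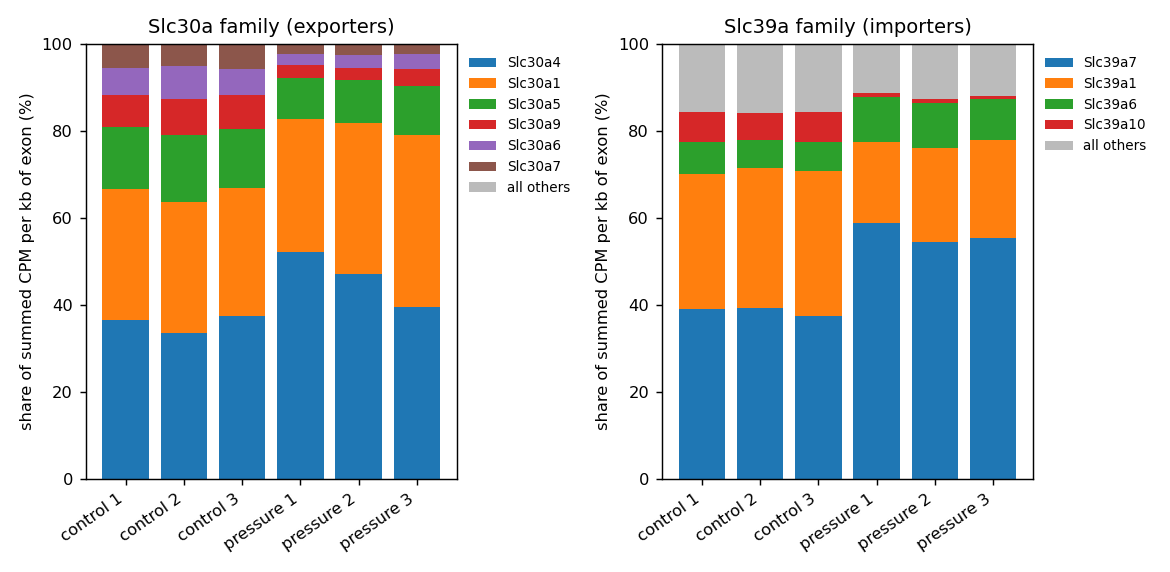
Share of each transporter in the summed level of its family (percent of CPM per kb of exon) in every library, for 10 Slc30a genes (left) and 14 Slc39a genes (right); genes under 4% in both group means are pooled as all others. Slc39a7 takes 56.2% of the Slc39a level under pressure and 38.5% in controls, and the Slc39a10 band shrinks from 6.65% to 0.786%.

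Other genes tied to MTF-1 did not move as a block. Of 6 listed, 3 rose and 2 fell (83.3% called, beside 68.8% of all genes, of which 33.7% were higher and 35.1% lower). Pgf (placental growth factor) rose by 2.40 ± 0.10 (edgeR adjusted p = 5.64e-08), Gclc, the catalytic subunit for glutathione synthesis, by 0.96 ± 0.09 (edgeR adjusted p = 6.70e-06) and Sepw1 (selenoprotein W) by 0.52 ± 0.13 (edgeR adjusted p = 0.00395; 0.0594 with library totals). Slc40a1, the iron exporter ferroportin, stood at 1117, 1110 and 1097 CPM in controls and at 276, 336 and 307 CPM under pressure. It fell by 1.85 on the log2 scale (edgeR adjusted p = 6.72e-08). Ndrg1 passed narrowly as lower (-0.23 ± 0.09, edgeR adjusted p = 0.0449), a call lost with DESeq2 (0.0745), with RLE factors (0.0647), with the replicate block (0.0706), with the length offset (0.115), and when any library other than pressure library 3 was left out, which left 1 fall. Csrp1 did not pass (-0.13 ± 0.08, edgeR adjusted p = 0.165), but did so as lower without pressure library 3 (0.0326), with upper-quartile factors (0.0258) and with library totals (0.00291).

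Copper and iron genes went both ways too, near the split of all genes (33.7% higher and 35.1% lower). Of 14 copper handling genes tested, 5 rose and 5 fell (71.4% called, beside 68.8% of all genes; 3 rose without control library 2 or pressure library 2, and 2 with library totals). Sco1, a copper chaperone of cytochrome oxidase, rose by 1.12 ± 0.10 (edgeR adjusted p = 3.93e-06), and Steap2, a metalloreductase, and Slc31a2, a vesicular copper transporter, had log2 fold changes of -1.45 ± 0.17 and -1.005 ± 0.12 (edgeR adjusted p = 2.68e-05 and 3.77e-05). Of 17 iron handling genes tested, 7 rose and 6 fell (76.5% called, beside the same 68.8%; 3 rose with library totals). Beside Slc40a1, Slc25a37, the mitochondrial iron importer mitoferrin 1, went from 175 ± 12.3 to 44.5 ± 2.19 CPM (-1.97 ± 0.09, edgeR adjusted p = 6.78e-08), and Hmox1 (heme oxygenase 1) rose by 0.97 ± 0.07 (edgeR adjusted p = 8.41e-07). Slc40a1 belongs to both this list and the MTF-1 list.

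Genes of the hormone and cytokine pathways known to induce metallothioneins were also examined. Of 9 glucocorticoid response genes tested, 6 rose and 1 fell (77.8% called, beside 68.8% of all genes, of which 33.7% were higher and 35.1% lower; 2 fell without pressure library 3). The median log2 fold change of this list was 0.76, against -0.02 for all genes. Among those that rose were Ddit4 (1.59 ± 0.12, edgeR adjusted p = 1.68e-06), Sgk1 (1.19 ± 0.10, edgeR adjusted p = 2.22e-06) and Dusp1 (0.86 ± 0.08, edgeR adjusted p = 4.84e-06). Per1 (0.98 ± 0.13), Nr3c1 (0.76 ± 0.13) and Klf9 (0.565 ± 0.12) rose too. Fkbp5 was the gene of this list that fell (-0.94 ± 0.12, edgeR adjusted p = 4.52e-05). Tsc22d3 (-0.23 ± 0.11, edgeR adjusted p = 0.0739) and Hsd11b1 (-0.21 ± 0.15, edgeR adjusted p = 0.239) did not pass. All but Ddit4, Sgk1 and Dusp1 were named after their values were seen. A role of glucocorticoids in the metallothionein levels was not tested. Of 10 interleukin 6 and STAT3 pathway genes tested, 4 rose and 2 fell (60% called, beside 68.8% of all genes; 4 fell with library totals). Socs3, a feedback target of STAT3, rose by 1.02 ± 0.13 (edgeR adjusted p = 4.33e-05) and Jak2 by 0.70 ± 0.08 (edgeR adjusted p = 3.24e-05), while Il6st, the shared receptor gp130, had a log2 fold change of -0.89 ± 0.10 (edgeR adjusted p = 2.71e-05).

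The genes closest in pattern to Mt1, Mt2 and Slc30a1 were sought among 9702 genes with a mean of at least 5 CPM, without the members and clone or predicted symbols, by distance between centred log2 CPM over the 6 samples. Closest to Mt2 were Cxcl2 (distance 0.649, Pearson r 0.997), Sele (0.721, r 0.993) and Phlda1 (0.963, r 0.993). Closest to Mt1 were Acot2 (0.410, r 0.991), Pgf (0.430, r 0.990) and Ccl2 (0.462, r 0.991), and to Slc30a1 Vcam1 (0.0664, r 0.999), Lpxn (0.112, r 0.999) and Ero1l (0.123, r 0.996). All points share the same 6 libraries in 2 groups, and 1609 genes had an r over 0.95 with Mt2, so these values are a description.

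Library totals ranged from 12922959 to 18655749 counts, and pressure library 3, the shallowest, stood apart from the other pressure libraries (correlations of log2 CPM 0.987 and 0.989, against 0.994 between the others). In that library, genes with under 1 kb of exon lay at a median of 0.17 above the mean of the other pressure libraries on the log2 scale, those of 1 to 2 kb at 0.22 and those over 4 kb at -0.09. Mt1 and Mt2 are short, and with an offset for length their log2 fold changes were 2.54 and 4.35. All 10 endothelial markers were detected and 7 of them fell, beside 35.1% of all genes called lower. Oit3 (log2 fold change -2.856 ± 0.075) and Stab2 (-1.162 ± 0.077) fell most, while Pecam1, Cdh5 and Lyve1 were not called. Together the endothelial markers summed to between 6924 and 7369 CPM in controls and between 5238 and 6310 CPM under pressure. Kupffer cell markers, 7 of 7 detected, summed to between 4807 and 5229 CPM in controls and between 4577 and 4962 CPM under pressure, so macrophage RNA was abundant in both groups. In bulk RNA, fewer cells of a type and less RNA per cell cannot be told apart, and the share of macrophages in the metallothionein counts was not tested.

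Hepatocytes express metallothioneins strongly, and their markers were also higher under pressure. The 9 hepatocyte markers summed to between 28.9 and 36.4 CPM in controls and between 45.3 and 51.4 CPM under pressure. Ttr, Apoc3, Fgb, Cyp3a11, Cyp2e1 and Hnf4a were under 1 CPM in every library. Of the 4 tested, 3 rose, beside 33.7% of all genes. The increase of the group means was 14.2 CPM for these markers together and 1094 CPM for Mt1 plus Mt2, and the part of hepatocyte RNA in the metallothionein counts was not tested. Stellate cell markers, 7 of 7 detected, summed to between 140.3 and 151 CPM in controls and between 159 and 176 CPM under pressure, with Lrat under 1 CPM throughout. Markers of cholangiocytes, lymphocytes, neutrophils and erythroid cells each summed to under 5 CPM in every library.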

How the data were processed

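Polyadenylated RNA of 6 libraries was read as single reads of 101 bases from a stranded kit, per the labels' protocols. The authors deposited expected counts per gene symbol, not normalized. The submitters' processing notes name TopHat2 2.2.1, Cufflinks 2.2.1 and mm10; the sources used here give neither the counting tool nor its strand setting nor the annotation. Samples were grouped by title. No pair of libraries within a group agreed within sampling noise (chi-square per degree of freedom at least 2.961).

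Counts were rounded, filtered with filterByExpr (minimum count 10, minimum total 15), scaled with TMM and compared with edgeR 4.0.16 quasi-likelihood F-tests in R 4.3.3, two-sided, with Benjamini-Hochberg adjustment over 12892 genes at 0.05. The SE is the log2 fold change divided by the square root of F. The script was tested on simulated data. Exonic lengths are from GENCODE M21 and were found for 96.08% of tested genes. The alternatives were DESeq2 1.42.0, limma-voom (limma 3.58.1), other factors and filters, the replicate number as a block, each library left out and, added after seeing the data, a length offset.

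The members and all gene lists were chosen with earlier results of these data known. Named were all members, every tested zinc transporter and MTF-1 gene, and of each other list the 3 called genes with the smallest p. The rest of the tested glucocorticoid list was named after its values were seen. The labels give the same replicate numbers to both groups, but nothing says that a number marks a shared animal or day.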

Additional observations from a re-analysis of the deposited data

How the results depend on the processing

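The 7 members whose groups did not overlap kept their direction under all 16 alternatives, each library left out included. Mt2 ranged from 4.03 (without pressure library 3) to 4.49 (without pressure library 1), Mt1 from 2.17 to 2.59 and Slc39a10 from -2.74 (library totals) to -2.38 (without pressure library 3). Counts moved by over 1.5 times in the small lists. Of the MTF-1 list, 1 gene was lower, in place of 2, with DESeq2, RLE factors, the length offset and the replicate block. With upper-quartile factors, 3 copper genes and 4 iron genes were higher and 2 glucocorticoid genes lower, and with library totals 2, 3 and 3, while 4 genes of the interleukin 6 list were lower. Leaving out single libraries gave between 2 and 4 lower zinc transporters, 1 and 3 lower MTF-1 genes, 3 and 6 higher copper genes and 1 and 2 lower glucocorticoid genes. The causes were not tested. For all genes, leave-one-out counts ran from 3887 to 4780 higher and from 4094 to 4966 lower. With the replicate block, 4069 genes were higher and 4315 lower. Deviations of same-numbered libraries had correlations of 0.129, -0.230 and -0.134, against -0.17 to 0.292 for pairs with different numbers. So few pairs cannot decide whether a number marks a shared animal or day. Low counts limit Tmem163, Slc39a5 and the untested transporters.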
